A study of Coprinopsis cinerea with 4 samples.

Results

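Long orthologous regions of the mushroom Coprinopsis cinerea are the intervals that the deposited table classes as orthologous and that span at least 4000 bp from start to end. Intervals within 100000 bp of a centromere interval, or of the outermost interval on either side of a chromosome, were left out. This gave 393 regions of 5830 orthologous ones, in a table of 27856 rows of which 13342 are genes. The rule used class, length and position only, not the read counts. Of 446 orthologous regions of this length, 35 lay near a centromere and 18 near a chromosome end. Centromere intervals were listed for 9 of the 13 chromosomes, so none could be left out near the centromeres of the others.

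RNA was sequenced from 2 stages of strain okayama7#130, hyphae and oidia, with 2 libraries each. Both stages were poly(A)-selected, hyphal libraries were made with the NEBNext Ultra kit for Illumina, and oidial ones with the SOLiD Total RNA-seq kit. Kit went with stage throughout, so the effects of the 2 on any value cannot be told apart. The labels do not say whether the libraries of a stage came from separate cultures, so p-values rest on differences between these libraries, and such differences may be technical only.

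Hyphae are the branching filaments through which the fungus feeds and grows at its tips. Oidia are single-celled asexual spores that the mycelium sheds and that germinate into new hyphae. Orthologues are genes of different species that descend from one gene of their common ancestor, and genes retained in this way often serve functions that many species need. Lengths here are spans from start to end on the chromosome, and coding lengths were not measured. A long coding sequence specifies a large protein. In fungi the large conserved proteins include motor proteins, multi-domain synthases, membrane pumps and scaffold proteins of the nucleus. These classes are given as background, since the sources used here attach no product name to the loci, and no role is given to any of them.

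Each of the 393 regions overlapped a locus of the RefSeq gene list for assembly CC3, 389 of them exactly 1 locus and 4 of them 2. In 320 regions the locus was longer by 3 bases at one end and ended at the same base at the other, and 3 bases is the length of a stop codon. Another 71 loci reached further past the region. Regions are called by the locus that covers most of them, with coordinates as in the deposited table, for which the sources used here name no genome build. They were 4000 to 15915 bp long with a median of 4734 bp, against a median of 1582 bp for the 5437 other orthologous regions.

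Reads in the long orthologous regions numbered 179290 and 135450 in the hyphal libraries and 226252 and 185113 in the oidial libraries. Per region the median was 311 and 229 reads in the hyphal libraries, and 267 and 217 in the oidial ones. At least 1 read was seen in 393 and 392 regions in the hyphal libraries, and in 388 regions in each oidial library. Levels are given below as CPM per kb, where CPM is the read count per 1000000 reads of the TMM-scaled library size and kb the region's length in 1000 bp, because a long region collects more reads than a short one at the same level. The median region had 7.20 CPM per kb in hyphae (quartiles 3.42 and 14.6) and 11.8 in oidia (quartiles 4.35 and 27.7). Levels were spread more widely in oidia, where the 90th percentile was 43.3 times the 10th, than in hyphae, where it was 15.8 times the 10th. Across the 393 regions the levels of replicate libraries had a rank correlation of 0.995 within each stage, and of 0.622 to 0.627 between libraries of different stages. The regions of a library share its depth and preparation, so these correlations are descriptions.

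Most long orthologous regions differed between the stages, and with TMM scaling more were lower than higher in hyphae. Of the 393 regions 387 had enough reads to test, and 327 passed edgeR's quasi-likelihood test at an adjusted p of 0.05 over all 9622 tested rows other than genes. Of the 387, 93 (24.0%) were higher in hyphae and 234 (60.5%) were lower. Among all 9622 tested rows 84.1% passed, 44.1% as higher and 40.0% as lower in hyphae. The share that passed at all, 84.5%, was near that of all rows, while more of the long regions were lower and fewer were higher than among all rows. In such bulk samples fewer cells that express a gene and less of its RNA per cell cannot be told apart. Changes of at least 4-fold were found for 20 regions higher in hyphae (5.17%) and 81 lower (20.9%), beside 19.8% and 16.0% of all tested rows. The authors' deposited table has an adjusted p under 0.05 (DESeq) for 298 of the regions, and all 298 also passed here. Its share over all rows was not counted, so this is no result about the long regions.

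The median log2 fold change (hyphae over oidia) of the tested long orthologous regions was -0.74, with quartiles of -1.79 and 0.30. It was 0.15 for the 5129 other tested orthologous regions and 0.12 for all tested rows. A direction is relative to the scaling of the libraries. Scaling by total gene reads added 1.53 to 1.55 to the log2 fold changes of 30 regions that passed and were named by rule. With it 250 long orthologous regions were higher in hyphae and 96 lower, their median was 0.83 and that of all tested rows 1.79. The median of the long regions lay below that of all rows by 0.86 with TMM and by 0.96 with total gene reads. With cyclic loess, which removes trends with abundance and was added after the data were seen, the gap was 0.39, with 127 regions higher and 194 lower.

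**Figure D1:**
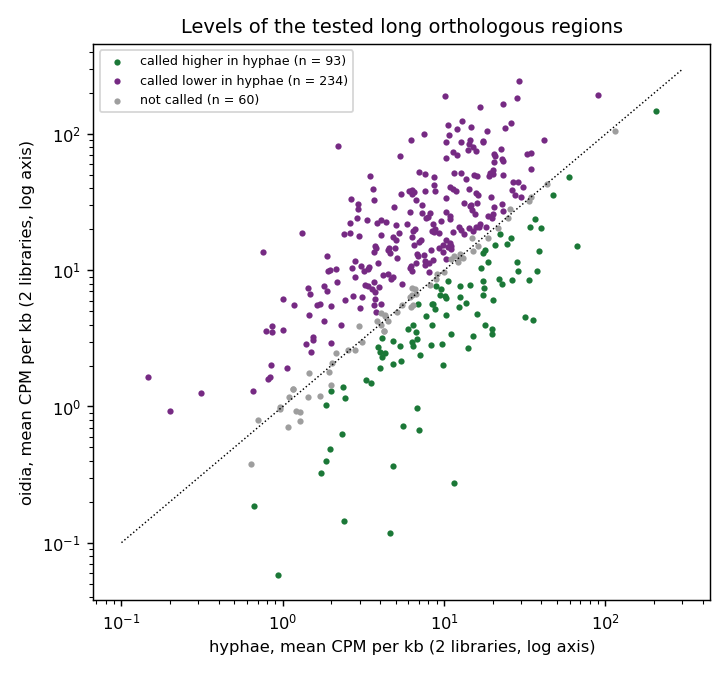
Mean CPM per kb of each tested long orthologous region in hyphae (horizontal log axis) and oidia (vertical log axis), 2 libraries each. The dotted line marks equal levels, and 234 regions called lower in hyphae lie above it while 93 called higher in hyphae lie below it.

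Regions picked for much less RNA in hyphae stood at ordinary hyphal levels and high oidial ones. The 81 regions at least 4-fold lower in hyphae had a median of 6.17 CPM per kb in hyphae and of 38.2 in oidia. The medians of all long orthologous regions were 7.20 and 11.8. The 81 were picked by the ratio of these same levels, and oidial levels spread more widely over all long regions. Their medians thus follow in part from the choice and do not show which stage changed. The 10 largest decreases among regions with at least 100 reads per library on average and no overlap between stages were named by rule, each with an adjusted p of at most 2.07e-110 (edgeR). CC1G_04465, on chromosome 3 from 891642 to 897146, had 2.03 and 2.34 CPM per kb in hyphae, against 81.3 and 82.2 in oidia. Its log2 fold change of -5.23 ± 0.10 (SE) was the lowest among the tested long orthologous regions. Both oidial libraries lay far above both hyphal ones, and the libraries of a stage lay close together. CC1G_10966, on chromosome 11 from 663851 to 668741, had 11.0 and 9.10 CPM per kb in hyphae and 189 and 194 in oidia (log2 fold change -4.24 ± 0.08, SE). It was also among the 5 most abundant long orthologous regions of oidia. CC1G_05787, on chromosome 12 from 165051 to 169466, was far less abundant, with 0.720 and 0.787 CPM per kb in hyphae against 13.4 and 13.9 in oidia, and a log2 fold change of -4.18 ± 0.19 (SE). Its hyphal value rested on 25 and 21 reads.

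CC1G_05055, on chromosome 8 from 1944915 to 1949055, had 6.21 and 6.23 CPM per kb in hyphae and 89.6 and 90.7 in oidia (log2 fold change -3.86 ± 0.09, SE). CC1G_01700, on chromosome 1 from 2327527 to 2334227, had 3.34 and 3.55 CPM per kb in hyphae and 48.8 and 49.3 in oidia (-3.83 ± 0.10). In both loci the replicate libraries differed by a few percent at most within oidia while the stages were more than 10-fold apart in level. CC1G_02000, on chromosome 3 from 1787298 to 1792923, had 1.51 and 1.12 CPM per kb in hyphae against 20.3 and 17.3 in oidia (-3.81 ± 0.13). Among the 10 regions it had the widest relative spread between the hyphal libraries. Of the remaining 4, the next 3 were longer than 8000 bp. CC1G_14673 spans 9468 bp on chromosome 5 from 2161978 to 2171446 and had 7.76 and 7.27 CPM per kb in hyphae and 101 and 101 in oidia. CC1G_11305 spans 11564 bp on chromosome 1 from 1621284 to 1632848 and had 5.44 and 5.23 CPM per kb in hyphae and 68.2 and 71.3 in oidia. CC1G_15763 spans 8412 bp on chromosome 13 from 101461 to 109873, with 2.69 and 2.58 CPM per kb in hyphae and 33.3 and 33.9 in oidia. Their log2 fold changes were -3.74 ± 0.08, -3.70 ± 0.08 and -3.67 ± 0.10 (SE). CC1G_04478, on chromosome 3 from 929788 to 935039, had 10.6 and 10.4 CPM per kb in hyphae against 117 and 116 in oidia (-3.48 ± 0.08).

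With TMM, fewer regions had much more RNA in hyphae, and these had low oidial levels. The 20 regions at least 4-fold higher in hyphae had a median of 8.44 CPM per kb in hyphae and of 0.848 in oidia. These 20 were also picked by the ratio of these levels, so their medians do not show which stage changed. The 10 largest increases under the same rule had adjusted p-values no higher than 3.37e-31 (edgeR). CC1G_04712, on chromosome 13 from 578088 to 582185, had 11.2 and 11.7 CPM per kb in hyphae, against 0.275 and 0.274 in oidia. Its log2 fold change of 5.35 ± 0.27 (SE) was the highest among the tested long orthologous regions, and it rested on 5 and 4 oidial reads. CC1G_00242, on chromosome 5 from 1414262 to 1418872, had 7.03 and 6.92 CPM per kb in hyphae and 0.489 and 0.854 in oidia, from 10 and 14 oidial reads (log2 fold change 3.41 ± 0.24, SE). The spread between its oidial libraries was wide, yet both stood far below the hyphal ones. CC1G_00562, on chromosome 1 from 3244938 to 3250564, reached 34.5 and 36.7 CPM per kb in hyphae against 4.05 and 4.65 in oidia (3.04 ± 0.11). CC1G_14095, on chromosome 3 from 526727 to 532395, had 33.1 and 30.3 CPM per kb in hyphae and 5.61 and 3.52 in oidia (2.77 ± 0.11). These were the most abundant in hyphae of the 10 and, at 5626 and 5668 bp, also the longest of them.

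CC1G_04830, on chromosome 2 from 3411298 to 3415302, had 6.86 and 6.73 CPM per kb in hyphae against 1.24 and 0.702 in oidia (log2 fold change 2.76 ± 0.24, SE). Leaving out oidia replicate 1 gave 3.27, the largest shift (0.51) that leaving out a library made among the named regions that passed. CC1G_01996, on chromosome 3 from 1779536 to 1783779, had 19.3 and 20.1 CPM per kb in hyphae and 3.72 and 3.11 in oidia (2.51 ± 0.13). It lies 3519 bp from CC1G_02000, named above among the largest decreases, so that long neighbours on chromosome 3 moved in opposite directions. CC1G_05308, on chromosome 11 from 1009683 to 1013889, had 20.4 and 19.4 CPM per kb in hyphae and 2.95 and 4.48 in oidia (2.45 ± 0.13). CC1G_00104, on chromosome 5 from 1119126 to 1123802, had 15.1 and 12.9 CPM per kb in hyphae and 2.07 and 3.31 in oidia (2.42 ± 0.15). In each of these the oidial libraries differed more from each other, in relative terms, than the hyphal ones did. CC1G_02923, on chromosome 8 from 1274042 to 1278429, had 10.1 and 9.65 CPM per kb in hyphae and 2.37 and 1.67 in oidia (2.27 ± 0.17). CC1G_14239, on chromosome 3 from 2494163 to 2499001, had 17.6 and 17.9 CPM per kb in hyphae and 3.40 and 4.47 in oidia (2.19 ± 0.13). The 20 regions named by this rule kept their direction and their call under all 13 alternatives run on them. They were picked for large changes in these same data, at least 2.19 up or 3.48 down on the log2 scale. That they kept direction thus follows largely from the choice and is no independent support. Larger changes in regions outside the rule, such as 5.24 in CC1G_04330, were not among these 20.

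**Figure D2:**
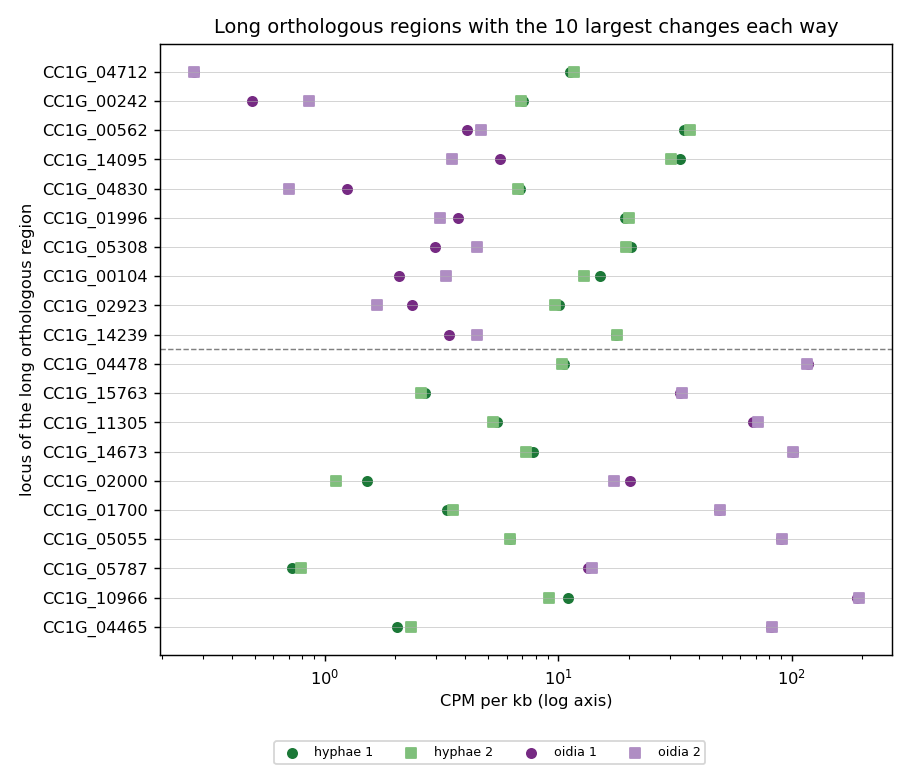
CPM per kb (log axis) of the 20 named long orthologous regions in each library, sorted by log2 fold change, with the 10 higher in hyphae above the dashed line and the 10 lower below it. Green symbols are hyphal and purple ones oidial libraries. The stages do not overlap in any row, as the naming rule required. CC1G_04712 stood at 11.2 and 11.7 in hyphae against 0.275 and 0.274 in oidia.

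Among the 5 most abundant long orthologous regions of each stage, 1 was shared. CC1G_07569, on chromosome 4 from 2500731 to 2505422, led in hyphae with 204 and 210 CPM per kb, against 141 and 156 in oidia. Its stages did not overlap, and it rose in hyphae by 0.48 ± 0.06 on the log2 scale (SE, adjusted p = 1.51e-13, edgeR), or by 2.27 with cyclic loess. CC1G_12096, on chromosome 3 from 1359602 to 1364295, followed with 116 and 114 CPM per kb in hyphae and 102 and 111 in oidia, and did not pass (0.11 ± 0.07, adjusted p = 0.11, edgeR). CC1G_12096 did pass with other scalings, at 0.38 for upper quartiles, 1.66 for total gene reads and 1.68 for cyclic loess, and without oidia replicate 2, at 0.16 (adjusted p = 0.0143, edgeR). It was higher in hyphae in each of these. CC1G_05468, on chromosome 11 from 1552887 to 1557331, was the shared one, with 93.2 and 87.9 CPM per kb in hyphae and 182 and 205 in oidia. Its log2 fold change, -1.10 ± 0.07 with TMM (SE, adjusted p = 4.30e-60, edgeR), turned to 0.45 with total gene reads and 0.54 with cyclic loess. CC1G_03518, on chromosome 9 from 1723788 to 1728155, had 66.5 and 67.0 CPM per kb in hyphae against 13 and 17.4 in oidia (2.15 ± 0.09, adjusted p = 1.20e-131, edgeR). CC1G_12961, on chromosome 2 from 1768743 to 1772878, had 57.2 and 61.3 CPM per kb in hyphae and 49.8 and 47.6 in oidia (0.28 ± 0.08, adjusted p = 0.000283, edgeR), and its log2 fold change was 1.44 with cyclic loess.

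In oidia the leading long orthologous region was CC1G_12463, on chromosome 4 from 996759 to 1001709, with 30.5 and 27.7 CPM per kb in hyphae against 246 and 244 in oidia. Its log2 fold change was -3.07 ± 0.07 (SE) with TMM, -1.52 with total gene reads and -1.61 with cyclic loess. CC1G_11108, on chromosome 5 from 417660 to 422937, had 22.3 and 23.9 CPM per kb in hyphae and 169 and 167 in oidia (-2.86 ± 0.07, SE). CC1G_07124, a region of 7824 bp on chromosome 8 from 928783 to 936607, had 27.7 and 28.8 CPM per kb in hyphae and 172 and 195 in oidia (-2.70 ± 0.07, SE). Cyclic loess gave -1.52 for CC1G_11108 and -1.08 for CC1G_07124, both lower in hyphae as with TMM. Apart from CC1G_05468 and CC1G_10966, named above, these were the most abundant long orthologous regions of oidia, and all 5 were lower in hyphae with TMM.

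Of the tested regions 60 did not pass, among them regions with many reads at nearly equal levels. The 5 with the smallest change at 100 or more reads per library on average were CC1G_01781, CC1G_13859, CC1G_11804, CC1G_00351 and CC1G_01884. CC1G_11804, on chromosome 3 from 3409097 to 3413188, had 34.7 and 34.4 CPM per kb in hyphae and 32.4 and 37.0 in oidia, so that the hyphal libraries lay between the oidial ones. CC1G_00351, on chromosome 5 from 1690535 to 1695353, had 45.2 and 42.2 CPM per kb in hyphae and 44.1 and 41.8 in oidia. CC1G_01781, on chromosome 1 from 2543374 to 2547732, had 12.4 and 12.3 CPM per kb in hyphae against 12.5 and 12.2 in oidia. CC1G_13859 and CC1G_01884 also overlapped between the stages, with levels of 6.37 to 7.02 and 8.06 to 9.30 CPM per kb over the 4 libraries. The standard errors of the 5 log2 fold changes were 0.08 to 0.13, so small changes could not be detected. Equality is relative to the scaling, since all 5 passed as higher in hyphae with total gene reads (1.54 to 1.58), and CC1G_13859 alone among them did not with upper quartiles or cyclic loess. CC1G_00351 also passed in its gene row, at 0.17 (adjusted p = 0.0182, edgeR).

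Longer classes of orthologous regions had lower median fold changes. Across length classes of orthologous regions the median log2 fold change was 0.40 under 900 bp, 0.29 from 900 bp, 0.20 from 1500 bp, -0.04 from 2000 bp and -0.12 from 3000 to under 4000 bp. Among the long orthologous regions it was -0.45 in 226 regions from 4000 to under 5000 bp, -0.69 in 76 from 5000 to under 6000 bp, -1.22 in 61 from 6000 to under 8000 bp and -1.70 in 24 of 8000 bp or more. Of the 85 regions of at least 6000 bp, 11 were higher and 65 lower in hyphae with TMM. With that scaling 1 was at least 4-fold higher against 29 at least 4-fold lower. Among the 20 longest, all of at least 8443 bp, 17 were lower in hyphae and 0 higher with TMM. These splits and the signs of the medians depend on the scaling. Total gene reads gave 250 higher and 96 lower over all long regions, and the length classes were not counted with it. The rank correlation of length with log2 fold change was -0.20 over the 387 tested long regions and -0.09 over the 5129 other orthologous ones. These are descriptions across regions that share the same 4 libraries and differ also in read number.

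**Figure D3:**
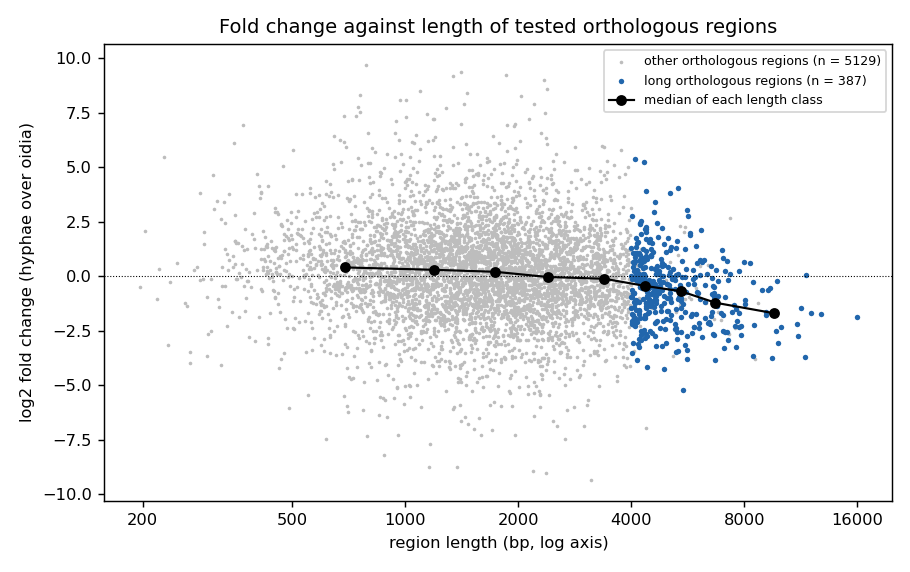
Log2 fold change (hyphae over oidia) against region length (log axis) for the 387 tested long orthologous regions (blue) and the 5129 other tested orthologous regions (grey). Black points are medians of length classes at the median length of each class, and they run from 0.40 under 900 bp to -1.70 at 8000 bp or more.

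Of the 5 longest regions, 4 were lower in hyphae and 1 did not pass. CC1G_07173, the longest at 15915 bp on chromosome 8 from 1040618 to 1056533, had 5.03 and 4.63 CPM per kb in hyphae and 16.6 and 18.5 in oidia (log2 fold change -1.85 ± 0.08, SE, adjusted p = 7.40e-113, edgeR). CC1G_07064, of 12787 bp on chromosome 4 from 2304613 to 2317400, had 14.7 and 15.8 CPM per kb in hyphae and 49.6 and 51.0 in oidia (-1.72 ± 0.07, adjusted p = 5.54e-128, edgeR). CC1G_01887, of 12067 bp on chromosome 3 from 1485839 to 1497906, had 7.76 and 8.65 CPM per kb in hyphae and 26.4 and 26.2 in oidia (-1.69 ± 0.08, adjusted p = 7.29e-101, edgeR). In all 3 loci the oidial libraries lay more than 3-fold above the hyphal ones. With total gene reads their log2 fold changes shrank to -0.30, -0.17 and -0.14, the last with an adjusted p of 0.0765 (edgeR), and with cyclic loess to -0.86, -0.34 and -0.62. CC1G_13822, of 11678 bp on chromosome 2 from 170230 to 181908, had 10.4 and 9.57 CPM per kb in hyphae and 10.5 and 9.08 in oidia, and did not pass (0.03 ± 0.08, adjusted p = 0.723, edgeR). Other scalings did call CC1G_13822 higher in hyphae, at 0.30 for upper quartiles, 1.58 for total gene reads and 0.92 for cyclic loess. The other of the 5 longest is CC1G_11305, given above at -3.70.

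Reads per kb within a library need no scaling between libraries, and long regions stood lower relative to other orthologous regions in hyphae than in oidia. The median long orthologous region had 58.4 and 42.8 reads per kb in the hyphal libraries and 53.0 and 41.1 in the oidial ones. The median of the other orthologous regions was 120 and 91.3 reads per kb in hyphae and 58.2 and 46.7 in oidia. The long regions therefore stood at 0.487 and 0.468 of the others in hyphae, and at 0.911 and 0.880 in oidia. Regions of 6000 bp or more stood at 0.388 and 0.386 of the other orthologous regions in hyphae, against 1.04 and 1.09 in oidia. Regions under 900 bp stood at 2.02 and 2.06 in hyphae, and at 1.61 and 1.49 in oidia.

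**Figure D4:**
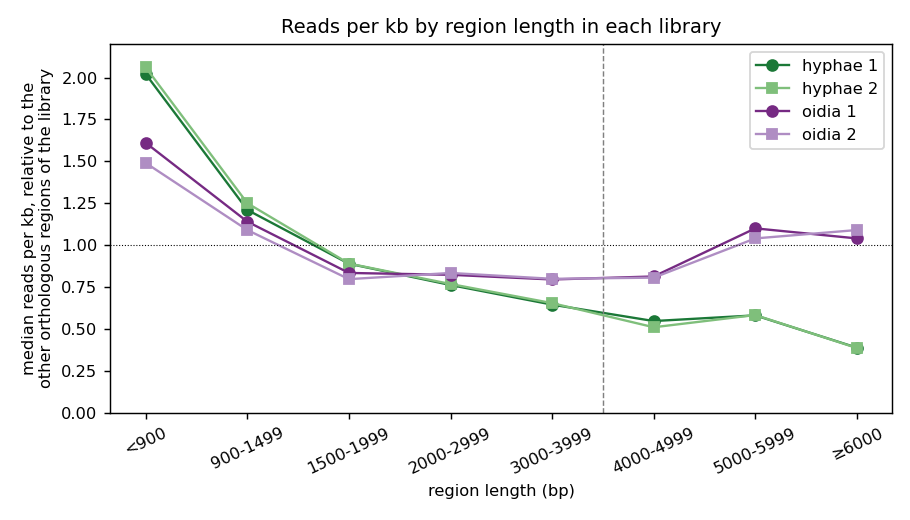
Median reads per kb of orthologous regions in 8 length classes (horizontal axis, bp) for each library, divided by the median over all orthologous regions other than the long ones in that library. Classes right of the dashed line are the long regions, where the hyphal libraries lie at 0.386 to 0.583 and the oidial ones at 0.806 to 1.10.

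The share of orthologous reads in the long regions was higher in hyphae, and the direction turned when the regions with most reads were left out. Long orthologous regions took 6.94% and 6.83% of the reads of all orthologous regions in hyphae (Wilson 95% intervals 6.909 to 6.971 and 6.793 to 6.863), and 4.95% and 4.87% in oidia (4.931 to 4.971 and 4.853 to 4.896). Such intervals cover counting error only. The means were 6.88% ± 0.0795 in hyphae and 4.91% ± 0.0542 in oidia (SD, n = 2 each), a difference of 1.97 percentage points with an exact two-sided permutation p of 0.33, the smallest that 2 against 2 libraries can give. The difference was 1.81 without the 5 long regions with most reads in each stage, and 0.236 for regions of at least 5000 bp, with 3.08% in hyphae and 2.85% in oidia. The 100 orthologous regions with most reads in each stage, 179 in all and 6 of them long, held 29.2% and 29.4% of orthologous reads in hyphae and 62.6% and 63.8% in oidia. Without these 179, whose median length was 1522 bp, the long regions took 8.77% and 8.63% in hyphae and 11.8% and 11.9% in oidia, which turned the difference to -3.12 percentage points.

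Abundant orthologous regions had lower fold changes, and long regions had lower medians than others in each of 4 abundance classes. Tested orthologous regions were put into 4 equal classes by their mean log2 CPM per kb over the 4 libraries. In the lowest class the median log2 fold change was -0.14 for 132 long regions and 1.16 for 1247 others. It was -0.64 and 0.44 in the second class, -1.04 and -0.05 in the third, and -1.79 (27 long regions) and -0.73 (1352 others) in the highest. The long regions lay below the others by 0.99 to 1.3 in every class. The 4 libraries gave both the abundance and the fold change, so the classes are not independent of what is compared in them, and they match CPM per kb, not read number. Settings that bear on read number moved the gap to all tested rows both ways from 0.86. It was 0.39 with cyclic loess, 0.60 over rows averaging 100 or more reads, and 1.35 with no low-count filter. The part of abundance in the difference was not tested further. Among paralogous and orphan regions under the same position rule, those of at least 4000 bp also had lower medians than shorter ones. The medians were -0.17 in 80 long against 0.66 in 1456 shorter paralogous regions, and -0.44 in 77 long against 0.06 in 1946 shorter orphan regions. Over orthologous regions under that rule they were -0.74 and 0.17. Tested shares were unlike, at 66.1% of long and 49.8% of shorter paralogous regions, and 92.8% and 62.4% of orphan ones. For orthologous regions they were 98.5% and 94.4%. The medians leave out the regions with too few reads. The 53 long orthologous regions left out for their position had a median of -0.98 over 52 tested. Whether the classes differ in this was not tested.

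With TMM, regions lower in hyphae outnumbered those higher on 11 of the 13 chromosomes. Over all chromosomes 93 were higher and 234 lower with TMM, against 250 higher and 96 lower with total gene reads. The split of other rows by chromosome was not counted. Chromosome 1 held 75 long orthologous regions, of which 15 were higher and 51 lower in hyphae, and chromosome 13 held 12, with 5 higher and 7 lower. Chromosome 12 had the lowest median log2 fold change, -1.23, with 2 higher and 14 lower of 18 tested. Chromosome 7 was the exception, with 13 higher and 10 lower of 27 tested and a median of 0.10. On chromosome 9 the counts were equal at 6 each. Consecutive long orthologous regions lay less than 20000 bp apart in 109 pairs, and other loci can lie between them. Both members passed in 73 pairs, of which 41 were both lower, 7 both higher and 25 opposite in direction. Most regions that passed were lower, and whether such pairs share a direction more often than other regions was not tested.

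Gene rows give a second view of the same loci, though most reads are shared with the region. The gene row held fewer reads than the region in 156 loci in hyphae and in 195 in oidia. It is therefore not a count of all reads over the span of the locus. The gene row of the locus held the same 4 counts as the region in 63 of the 393 regions. Over the 320 regions whose locus is longer by 3 bases only, gene rows held 0.986 and 0.985 times the region's reads in hyphae and 0.984 and 0.984 times in oidia. Over the 71 regions whose locus reaches further, by a median of 177 bases, the ratio was 1.11 and 1.12 in hyphae, against 1.02 and 1.01 in oidia. The replicates of a stage lay close together and the stages did not overlap. Of these 71 regions the ratio was higher in hyphae in 50 and lower in 20. For 1882 other orthologous regions with such loci the summed ratio was 1.155 and 1.165 in hyphae and 1.055 and 1.048 in oidia, but region by region it was higher in hyphae in 921 and lower in 890. Gene rows of the 387 tested loci gave 95 higher and 232 lower calls, with 0 opposite calls, 2 lost and 2 gained.

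**Figure D5:**
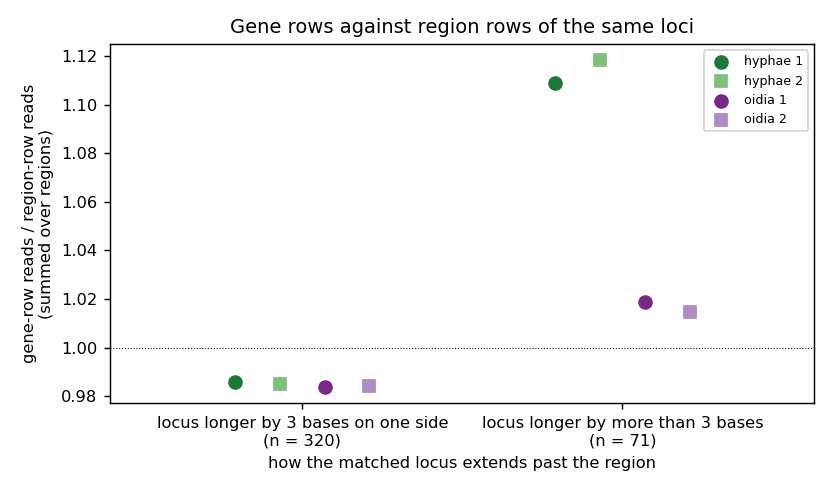
Reads of the gene rows divided by reads of the region rows in each library, summed over 320 long orthologous regions whose locus is longer by 3 bases and over 71 whose locus reaches further. The first group lies at 0.984 to 0.986 in all 4 libraries, and in the second the hyphal libraries (1.11 and 1.12) lie above the oidial ones (1.02 and 1.01).

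In 4 loci, picked after their values were seen, region and gene row differed by at least 0.5 in log2 fold change. In CC1G_05128, on chromosome 2 from 1932913 to 1937912, the region held 381 and 295 hyphal and 67 and 48 oidial reads, where its gene row had 674 and 530 in hyphae and 66 and 54 in oidia. The extra reads of the gene row were nearly all hyphal, and the log2 fold change was 1.75 for the region and 2.53 for the gene row. CC1G_00631, on chromosome 1 from 3428869 to 3433359, had 718 and 481 region reads against 1074 and 761 gene-row reads in hyphae, and 921 and 829 against 940 and 848 in oidia. Its log2 fold change was -1.36 for the region and -0.77 for the gene row. The reverse was seen in CC1G_01237, on chromosome 2 from 1268469 to 1273227, where the region held 54 and 41 hyphal and 140 and 140 oidial reads, and the gene row 53 and 39 in hyphae and 63 and 49 in oidia. Here most of the oidial excess lay inside the interval but outside what the gene row counts, and the log2 fold change was -2.36 for the region and -1.08 for the gene row. CC1G_01881, on chromosome 3 from 1466079 to 1470080, had 109 and 87 region reads against 55 and 52 gene-row reads in hyphae, and 17 and 29 against 14 and 23 in oidia (1.28 and 0.73). The sources used here do not name the strand and overlap settings of the counting, so reads of a gene, its antisense partner and an overlapping gene cannot be separated in these loci.

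Too few reads for a test were found in 6 regions. CC1G_08440, CC1G_08462, CC1G_09817, CC1G_09514 and CC1G_14757 had 7 to 13 reads over the hyphal libraries, while oidia had none. Against a floor of 3 reads over the oidial stage (0.376 CPM), their ratios ran from 1.34 (CC1G_09817 and CC1G_09514) to 2.49 (CC1G_14757). These ratios take the hyphal counts as exact and leave out their counting error, so no direction was tested. The sixth, CC1G_14217, held 9 and 9 hyphal and 7 and 2 oidial reads. Of the 6 regions 3 lie on chromosome 12. CC1G_08462, from 638924 to 643665, overlaps a row for a Kyakuja transposase, an enzyme of DNA transposons, and 11 of its 12 hyphal reads lay in hyphae replicate 1. CC1G_10323, on chromosome 6 from 1074547 to 1078939, overlaps a Dileera transposase row, so the reads of the 2 rows cannot be told apart. It had 5.70 and 5.08 CPM per kb in hyphae and 37.3 and 35.3 in oidia (log2 fold change -2.74 ± 0.10, SE, adjusted p = 6.02e-157, edgeR). No other long orthologous region overlapped a further row of the table other than genes.

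Values just inside and just outside the length limit are given without a test. The 5 shortest were 4000 to 4004 bp long and had log2 fold changes of 0.00 (CC1G_10294), -1.46 (CC1G_13672), 1.28 (CC1G_01881), -0.97 (CC1G_14632) and 2.76 (CC1G_04830). The 5 orthologous regions just below the limit were 3981 to 3992 bp long, with -0.43 (CC1G_04598), -1.0 (CC1G_03868), -0.92 (CC1G_06372), -0.15 (CC1G_00278) and 3.14 (CC1G_04974).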

How the data were processed

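RNA of 2 hyphal and 2 oidial libraries was analysed, with groups taken from the titles. TopHat, Bowtie 0.12.7 and DESeq are named in the submitters' processing notes. The sources used here name no genome build, annotation or counter. The values used are raw counts by library for each gene or element, as deposited. The authors also deposited mean signal per stage, a fold ratio and log2 values, which were not used, and p-values from DESeq.

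The counts of the rows other than genes were tested with edgeR 4.0.16's quasi-likelihood test in R 4.3.3, with filterByExpr and Benjamini-Hochberg adjustment over all 9622 tested rows. Library sizes (4586306 and 3546635 gene reads in hyphae, 7519091 and 6128727 in oidia) and TMM factors (1.71, 1.70, 0.589 and 0.580) came from the genes. Standard errors derive from the fold change and F statistic. Replicate libraries were not identical in counts. Their chi-square per degree of freedom was 1.16 in hyphae over 384 long regions and 2.08 in oidia over 378. The biological coefficient of variation, as edgeR names it, was 4.49%. The hyphal chi-square lay near what counting error alone gives, so these values do not show separate cultures.

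Named regions were those with the 10 largest changes each way (adjusted p under 0.05, no overlap between stages, mean count of 100 or more), the 5 most abundant of each stage, the 5 least changed with that mean count, the 5 longest, and those beside the length limit. Regions and lists were chosen with earlier results of these data known. None of 13 product lists could be evaluated, since no product names or sequences were used here. Alternatives were DESeq2 1.42.0, other scalings, filters, limits and fits, and leaving out each library. Cyclic loess (limma 3.58.1), gene rows and the removal of leading regions were added after the data were seen.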

Additional observations from a re-analysis of the deposited data

How the results depend on the processing

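The count of long orthologous regions that passed was 283 to 346 under all alternatives that kept the length limit and position rule and all libraries, against 327. Scaling by total gene reads moved the split to 250 higher and 96 lower in hyphae and turned the median log2 fold change to 0.83. The median was -0.74 in the main analysis, -0.47 with upper quartiles, -0.38 with cyclic loess, -0.64 with no low-count filter, -0.84 with a mean count of at least 100 and -0.69 with gene rows. Without 1 library each, the median was -0.69 to -0.66, the count that passed 310 to 325 (87 to 92 higher, 223 to 233 lower), and the count of at least 4-fold changes 97 to 101. A limit of 5000 bp left fewer regions, with 139 passing, 28 higher and 111 lower, 51 of them at least 4-fold, a median of -1.06 and a difference in read share of 0.236 percentage points. The difference in the share of orthologous reads turned to -3.12 percentage points without the leading regions of each stage. CC1G_05468 turned to 0.45 with total gene reads and to 0.54 with cyclic loess. The cause of these shifts was not tested, other than that a longer limit holds fewer regions. With the replicate block 323 passed, 90 higher and 233 lower, at the same median. Replicate numbers do not pair the libraries, whose deviations correlated at -0.00425. Of 481 values of named regions under the alternatives, 457 kept direction and call. Of 37 regions, 31 kept both with upper quartiles, 28 with total gene reads and 30 with cyclic loess. It was 36 or 37 with each other alternative, several of which hardly move the fold changes. Many of these regions were named for large changes in the same data, so the pooled count is no independent support. Few oidial reads limit the largest increases.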
